A study of Mus musculus with 60 samples.

Results

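The cytosolic ribosomal protein genes of the mouse were followed through preimplantation development in this single-embryo RNA-seq series. The 85 members were all annotated protein-coding genes named Rpl, Rplp, Rps or Rpsa in the table of 27238 genes, 52 of the large subunit and 33 of the small subunit, and names of mitochondrial ribosomal proteins, pseudogenes and the Rps6 kinases were left out. The gene Rps4l, annotated as a processed pseudogene, was therefore not a member. The study set embryos from normal mating beside embryos made by nuclear transfer (NT), to ask how far the transcriptome of NT embryos follows that of in vivo embryos from the 1-cell stage to the blastula and how it departs from that of the donor cells. Single embryos of 3 types were sequenced at 6 stages, and both kinds of donor cells were sequenced too, which gave 20 groups of 3 libraries each. Expression was given as RPKM, the reads of a gene divided by its length and by the mapped reads of the library. All annotated exons of a member can be longer together than its longest transcript (6256 against 4059 bases for Rps24). Levels of different genes therefore compare only roughly.

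The in vivo embryos came from superovulated C57BL/6 females mated with DBA2 males and had been taken from the mother at each stage. The NTC embryos carried the nucleus of a cumulus cell (CC, the somatic cells that surround the oocyte) of a BDF1 female, and the NTM embryos carried the nucleus of a BDF1 mouse embryonic fibroblast (MEF). By the paper's methods, the MEFs came from fetuses and were cultured and then serum-starved before transfer. The CC came from the oocytes of superovulated adult females and were stored cold until use. These differences between the donors cannot be told apart from cell type. In both NT types the nucleus was injected into an enucleated, superovulated BDF1 oocyte, and the reconstructed embryo was activated with strontium, treated with the histone deacetylase inhibitor Scriptaid and cultured in vitro. BDF1 is the F1 hybrid of the C57BL/6 and DBA2 strains, so the nuclei of all groups shared 1 genetic background. The oocytes were those of C57BL/6 females in vivo and of BDF1 females in both NT types. CC nuclei were female, and the sex of in vivo embryos and MEFs is not given in the sources used here. The in vivo embryos were neither manipulated, treated nor cultured. These differences, and those of oocyte strain and sex, cannot be told apart from nuclear transfer itself. In whole embryos, fewer cells of a type and less RNA per cell cannot be told apart either.

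Ribosomal proteins are assembled with ribosomal RNA into the large and the small ribosomal subunit, and a ribosome holds about equal numbers of most of them. Their mRNAs are among the most abundant of growing somatic cells, and most begin with a C followed by a run of pyrimidines, the 5′ terminal oligopyrimidine (TOP) motif, through which mTOR signalling and the protein Larp1 control their translation and stability. The growing oocyte stores ribosomes and mRNAs, much of the stored mRNA is degraded after fertilization, and the embryo then starts its own transcription, which in the mouse has its major wave in the 2-cell embryo (zygotic genome activation).

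The TOP motif lies at the start of the mRNA, and the gene starts of a few members named in the results below are printed here. RefSeq promoter windows (build GRCm38.p6) were matched by symbol for 65 of the 85 members. Each line gives the 40 bases before and the 20 bases from the annotated start, on the strand of the gene, with the longest pyrimidine run that reaches within 5 bases of the start in capitals (the first where runs are equally long). The first is that of Rps6, the subunit protein phosphorylated by the S6 kinases. Rpl28, Rps26 and Rpl41 follow, whose levels changed most among the printed genes. Rpl4, the large subunit member with the highest mean level over all libraries, comes next. Rps12 is last, the member with the largest rise from the in vivo 4-cell to the 8-cell stage, where Rps6 and Rpl4 rose too.
Rps6 (chr4:86857348-86857407, minus strand): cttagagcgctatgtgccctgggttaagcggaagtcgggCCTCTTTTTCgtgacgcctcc
Rpl28 (chr7:4792925-4792984, plus strand): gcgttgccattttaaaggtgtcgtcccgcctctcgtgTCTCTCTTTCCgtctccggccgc
Rps26 (chr10:128626487-128626546, minus strand): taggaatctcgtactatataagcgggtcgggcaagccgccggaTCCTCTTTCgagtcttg
Rpl41 (chr10:128549149-128549208, minus strand): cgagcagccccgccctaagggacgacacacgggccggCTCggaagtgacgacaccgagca
Rpl4 (chr9:64173347-64173406, plus strand): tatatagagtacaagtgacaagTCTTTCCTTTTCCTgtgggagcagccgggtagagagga
Rps12 (chr10:23787190-23787249, minus strand): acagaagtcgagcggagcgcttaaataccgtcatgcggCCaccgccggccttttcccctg

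A C followed by 4 pyrimidines lay at the annotated start of 13 of the 65 members, 20% of them, against 2.49% of 27025 genes with a window. The run was at least 8 bases long in 32.3% of the members and in 9.30% of all genes. Over the whole window, from 250 bases before to 50 bases after the start and on both strands, CCGGAAG, the core of the site bound by GABP, was held by 38.5% of the members and 9.12% of all genes. GGGCGG, the core of Sp1 sites, was held by 60% and 35.9%, AAGATGGC, the core of YY1 sites, by 7.69% and 2.88%, and TATAAA by 9.23% and 14.2%. These matches describe letters in a window, and annotated starts can lie some bases from those used in embryos.

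The number of reads assigned to genes was estimated from the steps of low RPKM values. By this estimate the libraries of embryos held between 5294167 and 26281508 reads, with a median of 14718210. Those of donor cells held between 31558140 and 47830132. A count of 3 reads in a gene of 1 kb stood for 0.114 to 0.567 RPKM in embryos and for 0.0627 to 0.0951 RPKM in donor cells. These floors cover counting error only, since the libraries were amplified by PCR without molecular identifiers. The labels were checked with marker lists: 12 fibroblast genes summed to between 8844 and 11620 RPKM in MEF, to at most 6.54 in CC and to at most 22.3 in embryos. The 14 cumulus genes summed to between 724 and 1614 RPKM in CC, with 2 of them at 0, to between 519 and 1239 in MEF and to at most 9.20 in embryos. The 8 oocyte genes summed to at least 1647 RPKM in 1-cell and 2-cell embryos and to at most 438.5 from the 4-cell stage on.

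The 3 in vivo 4-cell libraries stood apart from the other libraries of their age. Genes of the mitochondrial genome took between 5.68% and 8.87% of their reads, against 29.6% to 40.4% in NT embryos of the 4-cell stage and 20.4% to 64.2% in the other groups from that stage on. They alone held the highest level of the whole series for 41 of the 85 members, a share of 48.2%, while 6.95% of all genes with a mean of at least 0.5 RPKM did so. The members were not filtered by level, and Rpl3l, at 0.286 to 0.694 RPKM in these libraries, is among the 41. The rise, the comparisons with NT embryos and the counts of other gene lists, which rest on these libraries, are therefore given with the 8-cell stage in place of the 4-cell stage too. The in vivo morula replicate 1 also differed from the others of its group, with 64.2% of its reads from the mitochondrial genome.

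The members together took a very small share of the RPKM of early embryos and a much larger share from the 4-cell stage on. Their share of the summed RPKM was 0.408% ± 0.104 (SD, n = 3) in in vivo 1-cell embryos, 0.436% ± 0.0366 in NTC and 0.477% ± 0.0518 in NTM embryos. At the 2-cell stage the shares were 0.483% ± 0.0929, 0.638% ± 0.114 and 0.610% ± 0.0470 in the same order. All 18 libraries of these early stages were below every donor cell library, where the shares were 2.36% ± 0.187 in CC and 4.67% ± 1.12 in MEF.

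In the 4-cell embryo the share was 8.11% ± 0.260 in vivo, and it was 3.11% ± 0.162 and 3.54% ± 0.526 in the NTC and NTM types. The in vivo blastula had the highest mean share, 8.43% ± 1.41, against 5.48% ± 1.71 in NTC and 6.05% ± 0.771 in NTM blastulae. Between the group with the highest and the group with the lowest mean share lay a factor of 20.7. When the genes of the mitochondrial genome were left out of the sum, the in vivo 4-cell embryo moved from rank 2 to rank 9 of the 20 groups, at 9.35% ± 0.164, below the 12.96% ± 1.18, 13.9% ± 0.719 and 14.4% ± 0.106 of the in vivo 8-cell, morula and blastula stages. The NT shares of nuclear RPKM were 6.66% ± 0.142 in NTC and 7.92% ± 1.99 in NTM 4-cell embryos, and 10.9% ± 2.22 and 12.1% ± 2.82 in the blastulae. The in vivo morula libraries held 3.19%, 6.97% and 7.19% of all RPKM, the lowest being replicate 1.

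**Figure D1:**
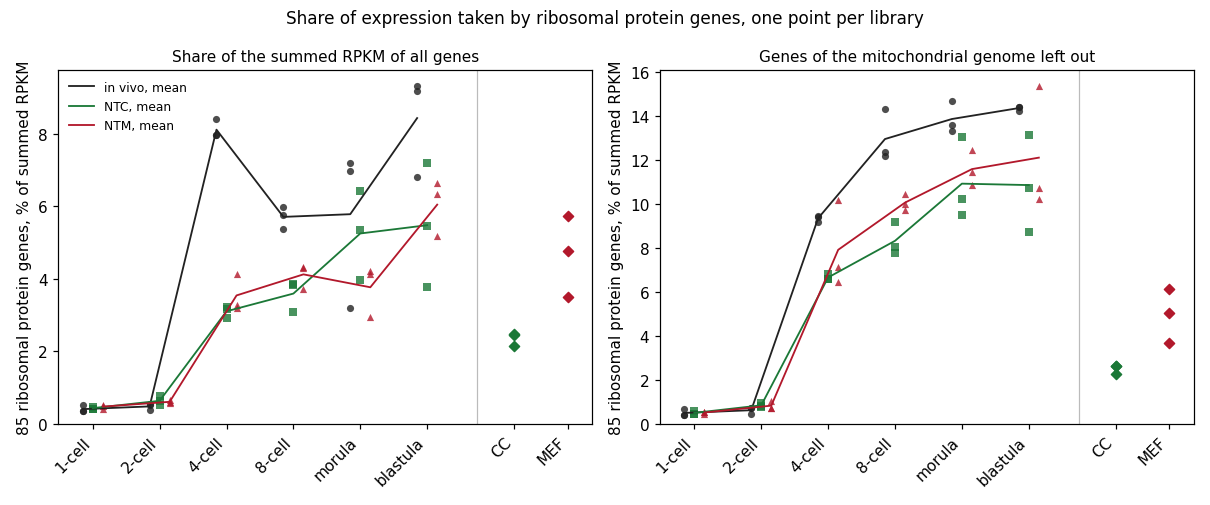
Share of the summed RPKM of each library taken by the 85 ribosomal protein genes (vertical axis, percent) at each stage (horizontal axis), for all genes and for nuclear genes only, with points for libraries, lines for group means and the donor cells beside the embryos. The shares of all RPKM stayed under 1% up to the 2-cell stage and reached 8.43% of all RPKM in the in vivo blastula, and the in vivo 4-cell mean of 8.11% of all RPKM became 9.35% of nuclear RPKM, which placed it below the later in vivo stages.

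The level of single members spanned several orders of magnitude, also where the encoded proteins stand in the ribosome in equal number. RPKM depends on the length taken for a gene, and how far that moved the order of members was not tested. By the mean over all libraries, the highest were Rps3a1, Rpl4, Rps2, Rplp1, Rpl17 and Rps6. Rpl4, a protein that lines the exit tunnel of the large subunit, stood at 156, 102 and 123 RPKM in in vivo 1-cell embryos, at 710, 1041 and 977 in 4-cell embryos and at 3176, 3360 and 3465 in blastulae. Rps3a1 (eS1), at the mRNA exit site of the small subunit, stood at 20.7, 36.6 and 71.2 RPKM in the 1-cell embryos, at 1028, 1175 and 1057 in the 4-cell embryos and at 3682, 5112 and 4294 in the blastulae. The 3 stages did not overlap for either gene. Rpl24 and Rpl3l, in contrast, never exceeded 2.44 and 0.694 RPKM in any library, and 47.0% of the exon length of Rpl24 is shared with an overlapping gene.

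**Figure D2:**
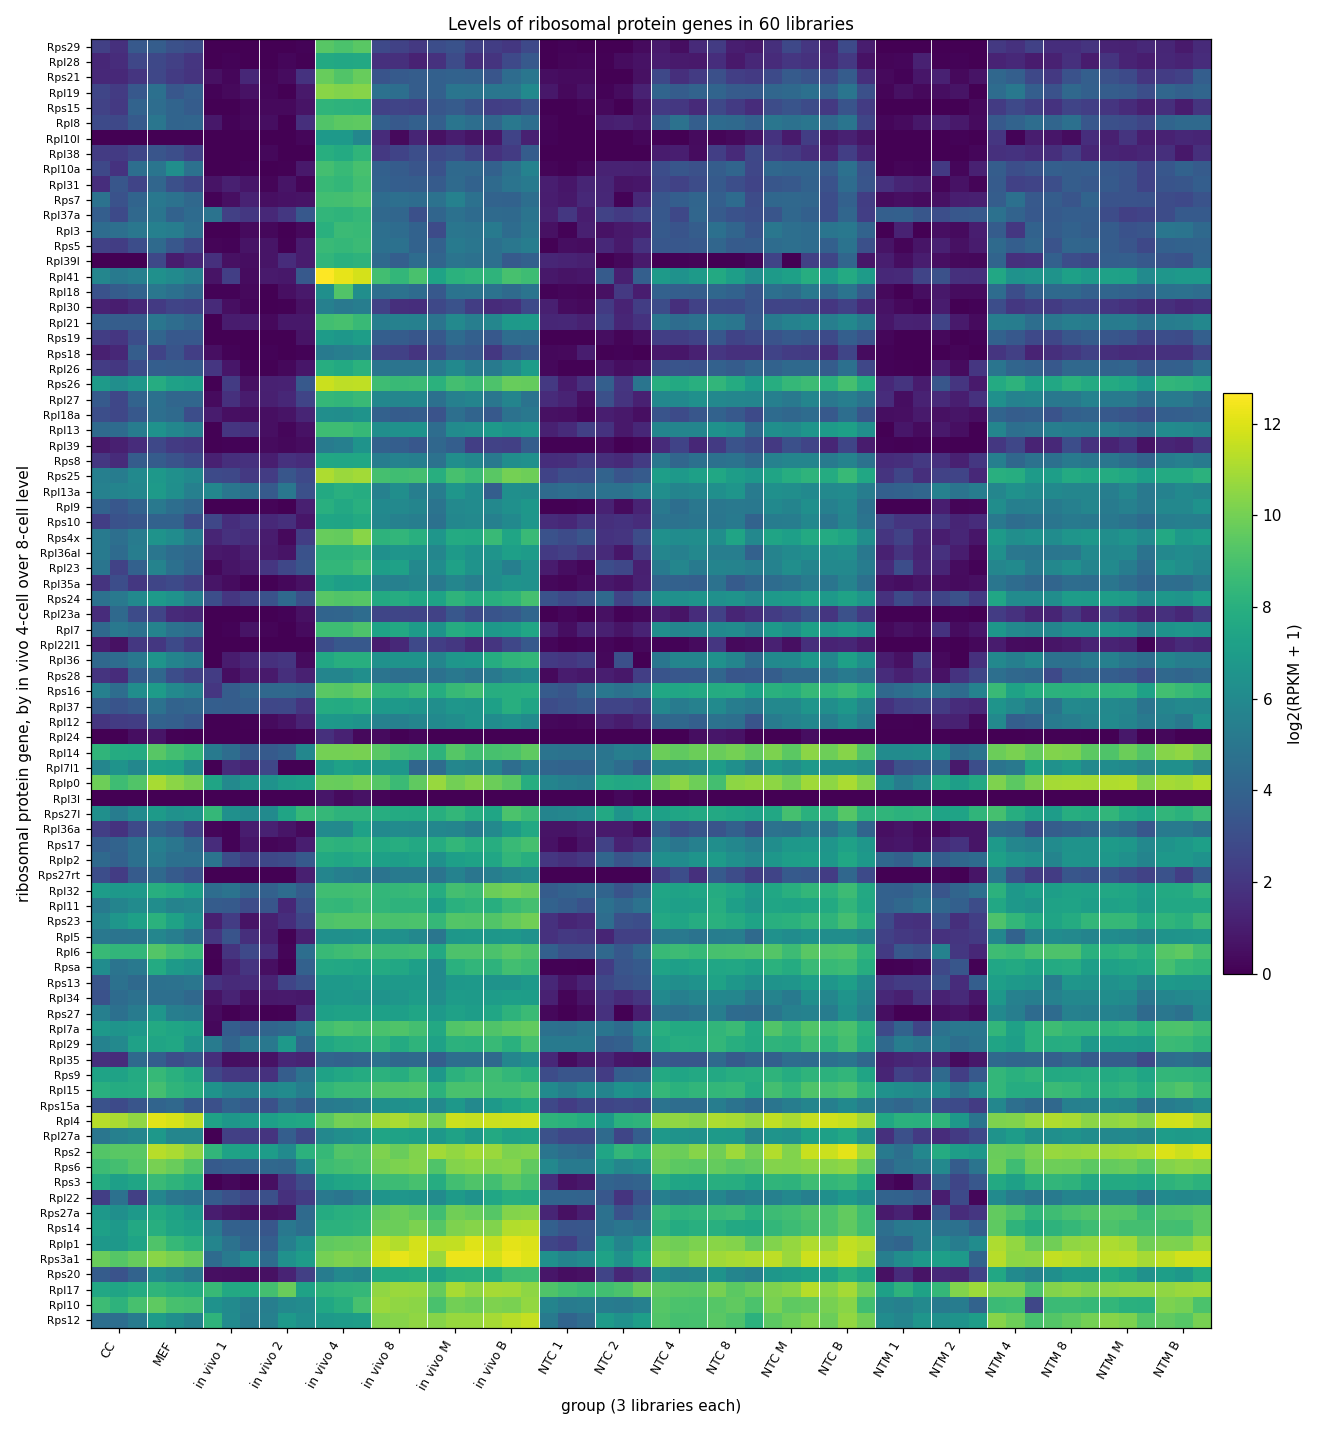
Level of 84 members (rows, ordered by the ratio of the in vivo 4-cell to the 8-cell level) in the 60 libraries (columns, in 20 groups of 3), as log2(RPKM + 1) on the colour scale. Most rows are dark up to the 2-cell stage and bright from the 4-cell stage on, and many rows are brightest in the in vivo 4-cell columns, which held the highest libraries of the series for 41 of all 85 members.

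In 1-cell embryos the members with the highest means were Rpl17, Rpl4 and Rps27l. Rpl17 (uL22), at the exit tunnel, was found at 364, 197 and 206 RPKM in in vivo embryos, at 577, 457 and 401 in NTC and at 144, 295 and 158 in NTM embryos. Rps27l, a p53-responsive copy of Rps27, was found at 348, 81.7 and 65.5 RPKM in vivo, at 51.6, 54.9 and 66.5 in NTC and at 315, 282 and 303 in NTM embryos. The parent gene Rps27 did not exceed 0.406 RPKM in any 1-cell library, so that the copy and not the parent was found at this stage. Rpl24, Rpl38, Rpl3l and Rps27rt were at 0 in all 9 libraries. Rpl10l, Rpl23a, Rpl9 and Rps29 were also at 0 in every in vivo and every NTM 1-cell embryo, and Rps15 in every NTM 1-cell embryo. In a gene of 1 kb the floor of the 1-cell libraries was 0.165 to 0.296 RPKM, so low levels were not detectable there.

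From the 1-cell to the 2-cell stage few members changed. A gene is called, here and below, when its adjusted p by limma over all genes tested was under 0.05 and its change was 1 or more in size on the log2(RPKM + 1) scale, a scale which understates the change of low genes. In vivo, 0 of 60 members tested were called, as were 0% of all genes (3 members and 615 genes had an unadjusted p under 0.05). In NTC embryos 13 of 69 members rose and none fell, where 4.53% of all genes rose and 8.95% fell, and the median change was 0.70 for the members and −0.17 for all genes. In NTM embryos 4 of 62 members rose and 1 fell, where 2.72% of all genes rose and 6.68% fell (9.4% in all), with medians of 0.16 and −0.22.

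In NTC embryos the stalk proteins were among those that rose at this step. Rplp0, Rplp1 and Rplp2 form the stalk of the large subunit that recruits the elongation factors. Rplp1 rose from 5.19, 4.19 and 8.68 RPKM to 106, 51 and 106 (log2 change 3.63 ± 0.39 SE, adjusted p = 0.000941). Rps2 (uS5), near the mRNA entry channel, rose from 29.8, 22.4 and 19.4 RPKM to 172, 336 and 254 (3.33 ± 0.30, adjusted p = 0.000529), and Rps27a, which is made as a fusion with ubiquitin, rose by 3.0 ± 0.49 (adjusted p = 0.00553). The libraries of the stages did not overlap for Rplp1 and Rps2. Of the 13 members, 10 were of the small subunit (of 26 tested) and 3 of the large subunit (of 43 tested).

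In NTM embryos Rps3, which sits at the mRNA entry site, rose by 2.70 ± 0.62 (adjusted p = 0.0311), Rpl17 by 2.27 ± 0.57 (adjusted p = 0.041), Rps2 by 1.94 ± 0.43 (adjusted p = 0.0276) and Rplp0 by 1.64 ± 0.36 (adjusted p = 0.0253). Rps15a, a small subunit protein, fell by 1.73 on the log2 scale, from 20.2, 17.3 and 23.8 RPKM to 7.02, 6.13 and 3.59 (SE 0.45, adjusted p = 0.0476). The count was 0 without any 1 of the 3 NTM 1-cell libraries and 3 without NTM 2-cell replicate 2, and without NTM 2-cell replicate 1 it was 5, with 2 higher and 3 lower. The NTC count fell to 7 without any 1 of the 3 NTC 1-cell libraries.

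Between the 2-cell and the 4-cell stage nearly all members rose in all 3 embryo types, while the median of all genes moved little. In vivo, 80 of 84 members tested were called, all higher, against 31.4% of all genes called higher and 20.8% called lower. The median log2 change was 5.85 over the members and 0.36 over all genes, and 83 of the 84 were above the median of all genes. In NTC embryos 69 of 78 members rose and none fell, against 16.4% of all genes that rose and 20.1% that fell. The medians were 2.84 and −0.20. In NTM embryos 70 of 82 members rose and none fell, against 12.1% and 14.3%, with medians of 3.28 and −0.20. Every member tested in NTC and in NTM embryos was above the median of all genes of that comparison. With the 8-cell in place of the 4-cell libraries, 80 of 83 members rose in vivo, against 13.8% of all genes, and the medians were 4.18 and −0.89. In NTC embryos 71 of 81 then rose, against 14.1% of all genes, and in NTM embryos 75 of 83, against 17.9%.

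The members called higher were largely the same in the 3 types: 66 were called in all of them, and 70 with the 8-cell in place of the 4-cell libraries. The largest changes in vivo were those of Rpl41, the smallest ribosomal protein, of Rpl19, which forms a bridge between the subunits, and of Rps26, at the mRNA exit site. Rpl41 was found at 0.874, 0.739 and 10.7 RPKM in 2-cell and at 6497, 4618 and 3627 in 4-cell embryos, with no overlap (10.47 ± 0.74, adjusted p = 5.54e-05). Rpl19 rose by 9.98 ± 0.36 (adjusted p = 1.77e-05) and Rps26 by 9.56 ± 0.65 (adjusted p = 5.06e-05). With the 8-cell libraries in place of the 4-cell libraries these changes were 7.0 ± 0.76, 3.98 ± 0.51 and 6.68 ± 0.69, and that of Rpl19 was below the median of the members.

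In NTC embryos the largest changes were those of the large subunit members Rpl7 (4.91 ± 0.42, adjusted p = 0.000159), Rpl6 (4.55 ± 0.35, adjusted p = 0.000116) and Rpl14 (4.51 ± 0.29, adjusted p = 6.84e-05). In NTM embryos they were those of Rps27a (6.68 ± 0.67, adjusted p = 0.000549), of Rps23, a protein of the decoding centre (6.00 ± 0.63, adjusted p = 0.000614), and of Rpl6 (5.74 ± 1.01, adjusted p = 0.00441). Rpl6 stood at 18.2, 10.2 and 18.6 RPKM in NTC 2-cell embryos and at 372, 405 and 361 in NTC 4-cell embryos. In NTM embryos its levels were 48.3, 3.19 and 1.7 RPKM and then 431, 369 and 530. The stages did not overlap in either type, and the NTM 2-cell embryos differed widely among themselves.

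The stalk, the laminin receptor protein and the signalling target rose in every type. Rpsa, a small subunit protein that is also known as the laminin receptor precursor, was at 0.433, 0 and 14.2 RPKM in in vivo 2-cell embryos and at 199, 189 and 171 in 4-cell embryos (6.06 ± 0.97, adjusted p = 0.00163). Its changes in NTC and NTM embryos were 4.21 ± 0.44 and 5.44 ± 0.87, to levels of 160, 140 and 160 RPKM and of 181, 207 and 160 RPKM. At the 4-cell stage the levels of Rpsa overlapped between NTM and in vivo embryos, and those of NTC lay below every in vivo library. Rps6 rose by 4.10 ± 0.49 in vivo and by 3.38 ± 0.30 and 4.66 ± 0.66 in the NTC and NTM types. Rplp0 rose by 2.94 ± 0.29, 2.40 ± 0.26 and 2.49 ± 0.41, Rplp1 by 4.45 ± 0.63, 3.66 ± 0.34 and 4.61 ± 0.49, and Rplp2 by 4.57 ± 0.36, 2.56 ± 0.39 and 2.60 ± 0.53 in the same order. Each of these 5 genes was called in each type. From the in vivo 2-cell to the in vivo 8-cell stage Rpsa rose by 6.02 ± 0.98, Rps6 by 5.39 ± 0.51, Rplp0 by 2.30 ± 0.40, Rplp1 by 6.32 ± 0.64 and Rplp2 by 4.12 ± 0.43.

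Rpl17, Rpl24, Rpl3l and Rps27l were called at this step in no type. Rpl17 and Rps27l were already at a high level in 1-cell embryos, and Rpl24 and Rpl3l stayed near 0 throughout. Rps12 was called in both NT types (2.22 ± 0.30 in NTC and 3.10 ± 0.48 in NTM) and not in vivo. In vivo it stood at 44.6, 114 and 77.3 RPKM in 2-cell and at 114, 121 and 129 in 4-cell embryos, so the ranges overlapped at their edges. A set of 14 members was called in vivo and in fewer than both NT types, and it held Rps29, Rpl28, Rpl38, Rpl39l and Rpl10l. With the 8-cell libraries such a set had 10 members, which held Rps29, Rpl28 and Rpl39l but neither Rpl38 nor Rpl10l.

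The list of members followed a different order in the in vivo 4-cell embryo than anywhere else. Over the 85 members, Pearson r of the log2 level lay between 0.972 and 0.979 for pairs of in vivo 4-cell libraries. With the means of the 11 other groups of the 4-cell stage or later they correlated with r between 0.438 and 0.586, while these 11 groups correlated among themselves with r between 0.857 and 0.996 and with the donor cells with r between 0.803 and 0.938. These correlations run over genes, which share the library and its depth, and describe the profile only. The SD over the members of the log2 level was 1.91 in the in vivo 4-cell embryo and between 2.63 and 2.94 in the 11 other groups, so the members were more alike in level there.

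Against the 9 in vivo libraries of the later stages, all 3 in vivo 4-cell libraries were higher for 43 members, lower for 15 and overlapping for 27. Of all genes with a mean of at least 0.5 RPKM, a filter not set for the members, 23.2% were higher and 1.68% lower. Of the 43, 28 were of the large and 15 of the small subunit, and of the 15, 6 were of the large and 9 of the small subunit. The pyrimidine run at the start, chosen as above, had a median of 5 bases in the 33 of the higher members with a window and of 4 bases in the 10 of the lower members. Across the 85 members the ratio of the in vivo 4-cell to the 8-cell level had a Spearman rho of −0.22 with the length of the longest transcript and of 0.22 with the share of unique 100-base stretches of the exons, both weak.

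Rps29, a small zinc-binding protein of the small subunit, was the extreme of the higher members. It was at 0, 0 and 0.0873 RPKM in in vivo 2-cell embryos, at 670, 544 and 689 in 4-cell embryos and at 5.95, 4.59 and 3.23 in 8-cell embryos. NTC 4-cell embryos held 0.907, 0.365 and 1.83 RPKM, NTM 4-cell embryos 3.32, 2.51 and 4.54, and MEF 12.1, 7.86 and 6.67. Every library outside the in vivo 4-cell group was thus far below that group. Rpl19 behaved alike, with 1368, 1214 and 1320 RPKM in the in vivo 4-cell and 25.2, 23.1 and 12.3 RPKM in the in vivo 8-cell embryos. Rps12 was opposite, at 114, 121 and 129 RPKM in the in vivo 4-cell and 1214, 1337 and 1499 RPKM in the in vivo 8-cell embryos.

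**Figure D3:**
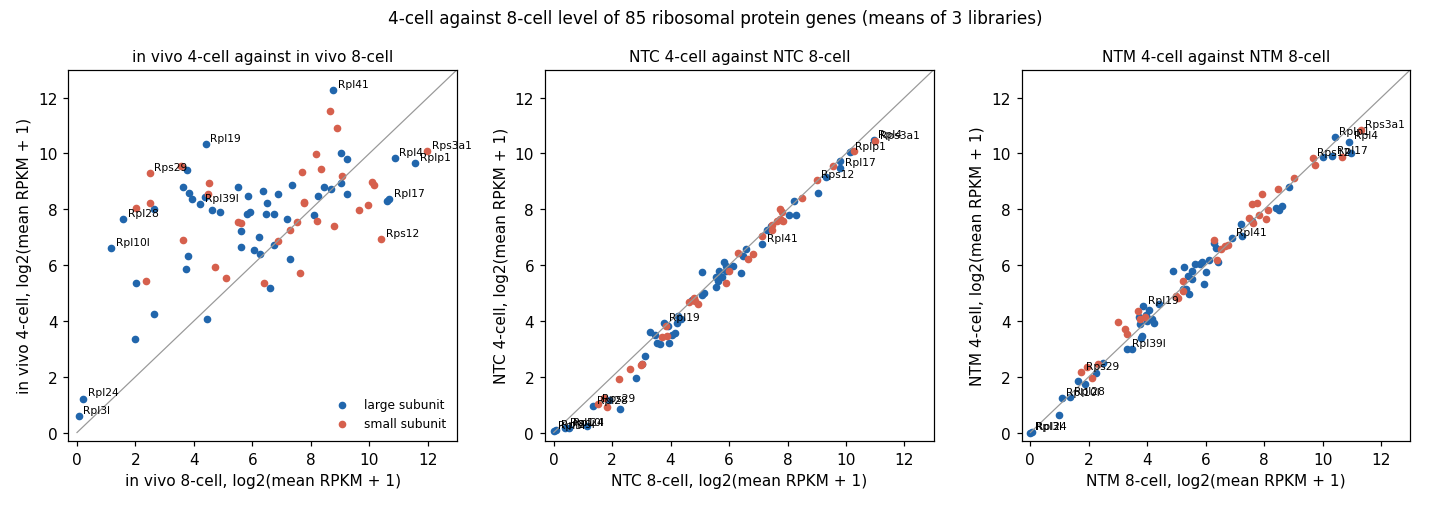
Mean level of each member in the 8-cell (horizontal axis) and the 4-cell embryo (vertical axis), as log2(mean RPKM + 1), in 1 panel each for in vivo, NTC and NTM embryos, with 1 point per gene coloured by subunit and a line of equal level. The NT points lie along the line, and the in vivo points scatter away from it, from Rps29 (at most 5.95 RPKM in the 8-cell and at least 544 in the 4-cell libraries) far above the line to Rps12 below it.

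From the in vivo 4-cell to the 8-cell stage 62 of 84 members were called, 15 higher and 47 lower, where 4.4% of all genes were higher and 39.3% lower (43.7% in all). The median was −1.28 for the members and −1.05 for all genes, so that the median of the list was close to that of all genes. Under median-ratio scaling, which moved the median of all genes to −0.16, the split was 29 higher and 25 lower, and with nuclear genes only it was 17 higher and 38 lower. Among the large decreases were those of Rps29 (−6.85 ± 0.29, adjusted p = 1.42e-05) and Rpl28 (−6.09 ± 0.31, adjusted p = 1.73e-05). Rpl28, of the large subunit, stood at 208, 193 and 198 RPKM and then at 2.35, 2.31 and 1.31. The groups were far from overlap.

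The 15 members that rose were led by Rps12 (3.46 ± 0.16, adjusted p = 1.58e-05), Rpl10 (2.44 ± 0.33, adjusted p = 0.000919) and Rpl17 (2.32 ± 0.14, adjusted p = 2.97e-05). They also held Rps20, Rps3a1 (1.89 ± 0.13), Rplp1 (1.87 ± 0.17), Rps14, Rps27a, Rpl22, Rps3, Rps6 (1.29 ± 0.15), Rps2, Rpl27a, Rpl4 and Rps15a. Rpl10 (uL16), a protein added late in the maturation of the large subunit, stood at 187, 246 and 500 RPKM in the in vivo 4-cell and at 1757, 1502 and 1419 in the 8-cell embryos, with no overlap.

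Against the in vivo 4-cell embryos, most members were lower in NT embryos of that stage. In NTC embryos 57 of 84 members were lower and 3 higher, against 20.4% of all genes called lower and 7.4% called higher (27.8% in all), with medians of −2.57 and −0.39. In NTM embryos 51 of 84 were lower and 2 higher, against 17.8% and 3.33% of all genes (21.1% in all), with medians of −2.09 and −0.69. The comparisons share the in vivo libraries, and 51 members were lower in both. The largest differences were those of Rps29 (−8.34 ± 0.34, adjusted p = 3.79e-06), Rpl39l (−8.09 ± 0.31, adjusted p = 3.79e-06) and Rps21 (−7.32 ± 0.33, adjusted p = 4.28e-06) in NTC embryos. In NTM embryos they were those of Rps29 (−7.17 ± 0.36, adjusted p = 7.22e-05), Rpl28 (−6.40 ± 0.40, adjusted p = 0.000157) and Rpl38 (−6.26 ± 0.39, adjusted p = 0.000157). Rpl17 and Rps12 were higher in both NT types, and Rps2 in NTC embryos.

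The 8-cell stage gave a much smaller difference. There 11 of 83 members were lower in NTC embryos and none higher, against 0.578% of all genes called lower and 0.882% called higher. The medians were −0.88 and 0.56. In NTM embryos 12 of 83 were lower and 1 higher, where 0.825% of all genes were lower and 1.2% higher (2.02% in all), with medians of −0.68 and 0.24. The direction of Rps12 and Rpl17 turned: Rps12 was lower in NTC (−1.50 ± 0.33, adjusted p = 0.0496), and in NTM embryos its difference was −0.77 ± 0.24, which did not pass, and Rpl17 passed in neither (−0.91 ± 0.23 and −0.37 ± 0.19). Rps29 differed by −1.06 ± 0.66 and −0.72 ± 0.52, which did not pass either.

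Rps27, Rpl36a and, in NTC embryos, Rpl39l kept a lower level at the 8-cell stage. Rps27 stood at 146, 143 and 176 RPKM in in vivo, at 41.4, 20.9 and 20.1 in NTC and at 20.2, 47.1 and 42.8 in NTM 8-cell embryos (−2.53 ± 0.42, adjusted p = 0.021, and −2.13 ± 0.38, adjusted p = 0.023). Rpl36a stood at 64.4, 69.2 and 61.2 RPKM in vivo, at 8.8, 13.6 and 7.51 in NTC and at 12.5, 15 and 17.1 in NTM embryos (−2.62 ± 0.46, adjusted p = 0.0261, and −2.06 ± 0.35, adjusted p = 0.0228). Neither NT type overlapped the in vivo embryos for these genes. Rplp0 was the member that was higher in NTM 8-cell embryos, at 2019, 2057 and 1956 RPKM against 641, 395 and 756 in vivo (1.80 ± 0.26, adjusted p = 0.0117).

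Whether the rise itself differed between the types was tested with an interaction term, as the 2-cell to 4-cell change of the NT type minus that in vivo. For NTC embryos 54 of 83 members were called, all with a smaller rise, against 12% of all genes in that direction and 2.38% in the other. The medians were −3.01 and −0.41. For NTM embryos 37 of 83 had a smaller and 1 a larger rise, against 8.05% and 1.86% of all genes, with medians of −2.28 and −0.39. The largest differences were those of Rps29 (−8.42 ± 0.55, adjusted p = 6.9e-06), Rpl39l (−7.39 ± 0.57, adjusted p = 1.33e-05) and Rpl38 (−7.07 ± 0.52, adjusted p = 1.24e-05) for NTC embryos. For NTM embryos they were those of Rps29 (−7.13 ± 0.59, adjusted p = 9.07e-05), Rpl28 (−6.35 ± 0.57, adjusted p = 0.000126) and Rpl10a (−6.31 ± 0.77, adjusted p = 0.000539), and the larger rise was that of Rps12 (2.39 ± 0.64, adjusted p = 0.0344).

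With the 8-cell stage in place of the 4-cell stage, limma called 0 of 82 members for NTC and 0 of 83 for NTM embryos, where 0.219% and 0.577% of all genes were called. An unadjusted p under 0.05 was reached by 30 and 16 members. The medians were −1.31 and −0.84 for the members and 0.30 and 0.31 for all genes, and 78 of 82 and 74 of 83 member differences were negative. Rps29 differed by −1.14 ± 0.65 and −0.68 ± 0.57 on this scale. The large differences of the rise were therefore measured with the in vivo 4-cell libraries and were not called from the 8-cell libraries.

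**Figure D4:**
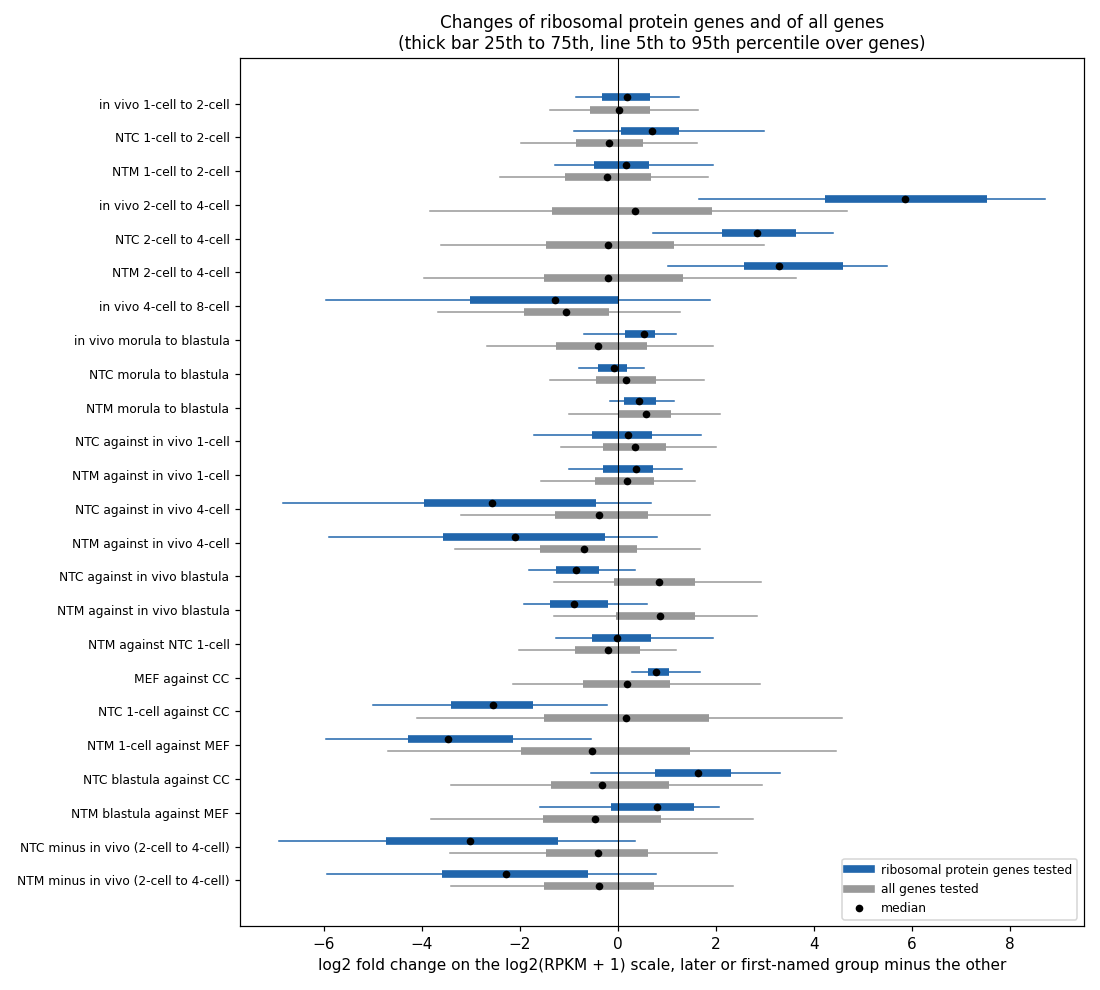
Log2 fold changes in each comparison (rows), with the median, the interquartile range and the central 90% of the ribosomal protein genes beside those of all genes tested (horizontal axis). The members lie to the right of all genes at the 2-cell to 4-cell step, with medians of 5.85, 2.84 and 3.28 against 0.36, −0.20 and −0.20, and to the left of them where NT embryos are set against in vivo embryos at the 4-cell stage and in the blastula.

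From the morula to the blastula, limma called 0 of 83 members in vivo (7 with an unadjusted p under 0.05) and 0 of 83 in NTC embryos (4 with an unadjusted p under 0.05), where 0.801% and 7.16% of all genes were called (in NTC embryos 4.54% higher and 2.62% lower). The medians in vivo were 0.53 for the members and −0.41 for all genes, and in NTC embryos they were −0.07 and 0.17. Without in vivo morula replicate 1 the count in vivo was again 0 and the medians were 0.20 and −0.62 for the members and all genes. In NTM embryos 3 of 83 members rose, Rpl10 (1.63 ± 0.35, adjusted p = 0.029), Rpl29 (1.47 ± 0.31, adjusted p = 0.0284) and Rpl4 (1.06 ± 0.27, adjusted p = 0.0496), and none fell, where 3.73% of all genes rose, 0.499% fell and 4.22% were called in either direction. Rpl29 stood at 133, 129 and 119 RPKM in NTM morulae and at 394, 365 and 305 in NTM blastulae, with no overlap. None was called without any 1 of the 3 morula libraries or without NTM blastula replicate 1 or 2, and 6 were called without NTM blastula replicate 3.

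NT blastulae lay below in vivo blastulae in the median of the members and above them in that of all genes. In NTC blastulae 5 of 83 members were lower and none higher, where 0.657% of all genes were lower and 8.81% higher (9.46% in all), with medians of −0.85 for the members and 0.85 for all genes, and 3 members were above the median of all genes. They were Rps27 (−2.36 ± 0.51, adjusted p = 0.0377), Rps25 (−1.81 ± 0.35, adjusted p = 0.0316), Rpl32 (−1.74 ± 0.33, adjusted p = 0.0295), Rps14 (−1.73 ± 0.34, adjusted p = 0.032) and Rps12 (−1.16 ± 0.27, adjusted p = 0.0409). Rpl32, of the large subunit, stood at 911, 1052 and 888 RPKM in vivo, at 277, 415 and 198 in NTC and at 205, 213 and 318 in NTM blastulae. Neither NT type overlapped the in vivo embryos.

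In NTM blastulae 4 of 83 members were lower and 1 higher, where 0.181% of all genes were lower and 0.565% higher (0.746% in all), with medians of −0.89 and 0.86. The lower members were Rpl36 (−2.72 ± 0.46, adjusted p = 0.0497), Rpl32 (−1.97 ± 0.31, adjusted p = 0.0494), Rps12 (−1.61 ± 0.27, adjusted p = 0.0494) and Rplp1 (−1.49 ± 0.24, adjusted p = 0.0494), all close to the threshold. Rps2 was higher, at 3908, 3256 and 3940 RPKM against 1739, 1163 and 1227 (1.44 ± 0.20, adjusted p = 0.0494). These counts rested on single libraries: the NTC count was 0 without in vivo blastula replicate 2 or 3 or NTC blastula replicate 1 or 2 and 3 without NTC replicate 3, and the NTM count was 0 without in vivo replicate 2 or 3 or NTM replicate 1 or 2 and 15 without NTM replicate 3. The counts were 0 and 0 with no filter on low values and also with the replicate number as a block, 17 and 1 under median-ratio scaling, and 27 and 36 where the libraries were fitted together over all 20 groups.

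In the 1-cell embryo few members differed from the in vivo embryo. In NTC embryos 1 of 59 members was higher, Rpl7l1 (3.11 ± 0.52, adjusted p = 0.0411), and 1 lower, Rps2 (−2.97 ± 0.39, adjusted p = 0.0204), where 0.988% of all genes were higher and 0.175% lower (1.16% in all) and the medians were 0.20 and 0.34. In NTM embryos 1 of 57 was called, Rps2 again (−2.35 ± 0.45, adjusted p = 0.0451), where 0.369% of all genes were higher and 0.912% lower (1.28% in all) and the medians were 0.38 and 0.18. Rps2 was found at 319, 156 and 140 RPKM in vivo, at 29.8, 22.4 and 19.4 in NTC and at 35.7, 24 and 57.8 in NTM embryos, so both NT types lay below every in vivo library. Without in vivo 1-cell replicate 1 the counts were 12 and 6, the latter with 5 members higher. The NTC count was 1 without in vivo replicate 3 and 0 without in vivo replicate 2 or any 1 of the NTC libraries, and the NTM count was 0 without in vivo replicate 2 or 3 or any 1 of the NTM libraries.

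The NT types were also set against each other at this stage, where 19.8% of all genes were called. In NTM embryos 8 of 57 members were higher and 5 lower than in NTC embryos, against 5.64% of all genes called higher and 14.2% called lower, with medians of −0.02 for the members and −0.19 for all genes. The higher members were led by Rplp2 (2.40 ± 0.32, adjusted p = 0.00182), Rps27l (2.37 ± 0.16, adjusted p = 0.0001) and Rpl37a (2.31 ± 0.37, adjusted p = 0.00339). Rplp2 stood at 18, 13.9 and 28.4 RPKM in NTM, at 3, 2.36 and 3.22 in NTC and at 28.5, 7.04 and 3.86 in in vivo embryos. The NT types did not overlap, and the in vivo embryos all lay above the NTC embryos and ranged widely. The lower members were Rpl7a (−1.63 ± 0.38), Rpl17 (−1.32 ± 0.27), Rps9 (−1.26 ± 0.37), Rpl7l1 (−1.20 ± 0.37) and Rps4x (−1.20 ± 0.36). The count was 8 without NTC 1-cell replicate 2.

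Most members stood at a higher RPKM in donor cells than in the 1-cell embryos made from their nuclei. RPKM gives shares of a library, so amounts per cell or embryo were not compared. In NTC 1-cell embryos 68 of 82 members were lower than in CC and 2 higher, against 20.8% of all genes called lower and 29.3% called higher, with medians of −2.54 and 0.16. In NTM 1-cell embryos 75 of 82 were lower than in MEF and 1 higher, against 29.9% and 25.2%, with medians of −3.46 and −0.53. Both comparisons called 66 members lower. The largest differences were those of Rps3 (−6.43 ± 0.37, adjusted p = 6.34e-05), Rps27a (−5.67 ± 0.32, adjusted p = 5.75e-05) and Rpsa (−5.33 ± 0.39, adjusted p = 0.000148) in NTC embryos. In NTM embryos they were −7.59 ± 0.40, −6.42 ± 0.38 and −6.97 ± 0.37 for the same genes.

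Rps3 shows the size of this difference, with 217, 141 and 173 RPKM in CC and 2.16, 0.518 and 0.77 in NTC 1-cell embryos. MEF held 380, 299 and 229 RPKM and NTM 1-cell embryos 0.299, 0.106 and 1.54. In vivo 1-cell embryos, which had no donor cell, held 0, 0.191 and 0. The members higher in the embryo were Rpl17 (1.30 ± 0.20, adjusted p = 0.00255) and Rpl39l (1.24 ± 0.26, adjusted p = 0.00878) in NTC and Rps27l (1.61 ± 0.21, adjusted p = 0.00069) in NTM embryos.

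By the blastula the order was turned for many members. In NTC blastulae 45 of 82 members were higher than in CC and 1 lower, against 9.92% of all genes called higher and 14.3% called lower. The medians were 1.64 and −0.32. In NTM blastulae 31 of 83 were higher than in MEF and 6 lower, against 11% called higher and 19.8% called lower, with medians of 0.80 and −0.47. The NTC count was 27 and 24 without NTC blastula replicates 1 and 2, and the NTM count was 23 without NTM blastula replicate 2. Rps12 led both, with 5.30 ± 0.33 (adjusted p = 0.000151) against CC and 3.34 ± 0.39 (adjusted p = 0.000504) against MEF, and was followed by Rplp1 (4.17 ± 0.30) and Rps20 (3.90 ± 0.38) in NTC blastulae. Rps12 stood at 23.5, 22.7 and 37.1 RPKM in CC and at 896, 1554 and 966 in NTC blastulae, and at 121, 79.1 and 50.8 in MEF and 757, 644 and 1078 in NTM blastulae. Rps15 (−2.59 ± 0.48, adjusted p = 0.00449), Rps29, Rps7, Rpl10a and Rpl38 were among the members lower in NTM blastulae than in MEF.

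Between the donor cell types, of 82 members 80 had a positive difference of MEF against CC, and the median was 0.77 against 0.19 for all genes. Called were 2, both higher in MEF, against 3.99% of all genes called higher: Rplp1 (1.66 ± 0.35, adjusted p = 0.0249) and Rps2 (1.60 ± 0.21, adjusted p = 0.00304). Rps2 stood at 2535, 2112 and 1532 RPKM in MEF and at 629, 677 and 692 in CC, with no overlap. The count was 1 without any 1 of the MEF libraries, 0 with no filter on low values, 4 with the replicate number as a block and 17 where all 20 groups were fitted together.

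Several members have a near copy elsewhere in the genome that is itself a member, and their levels went different ways. Rpl10l, an intronless copy of Rpl10 known for its use in spermatogenesis, was at 113, 116 and 57.2 RPKM in in vivo 4-cell embryos and did not exceed 4.80 RPKM in any other library. Rpl10 was at 187, 246 and 500 RPKM in the same embryos. All 100-base stretches of Rpl10l were unique in the annotated transcripts, against 73.3% of those of Rpl10. In NTM 4-cell embryos Rpl10 was at 396, 427 and 5.52 RPKM, so that 1 embryo stood far below the others.

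Rpl39l, a copy of Rpl39 also known from the male germ line, was at 319, 264 and 292 RPKM in in vivo 4-cell embryos and at 19.2, 12.9 and 20.9 in 8-cell embryos. In NTC embryos it was at 0, 0.102 and 0.117 RPKM at the 4-cell and at 0, 0 and 0.169 RPKM at the 8-cell stage. The floor of a gene of 1 kb was 0.253 to 0.314 RPKM in the NTC 4-cell libraries and 0.140 to 0.205 in the NTC 8-cell libraries. It is higher for Rpl39l, which has 831 bases of exon, so none of these NTC values lay clearly above it. In NTM embryos it was at 16.1, 2.34 and 2.68 and at 13.9, 7.04 and 5.64 RPKM. CC, the donors of the NTC embryos, held 0 in all 3 libraries, and MEF held 5.63, 0.974 and 1.71. The difference of NTC from in vivo 8-cell embryos was −4.12 ± 0.61 (adjusted p = 0.0164), and that of NTM embryos was −0.98 ± 0.48 and did not pass. At other stages Rpl39l was found in NTC embryos, at means of 1.37 RPKM in 1-cell embryos (0.844 in NTM) and 3.01 in morulae. In NTC blastulae the mean was 7.67 RPKM, against 16.2 in vivo, with overlap (−1.50 ± 0.95, limma adjusted p = 0.340). Its parent Rpl39 was at 1.9, 4.89 and 1.7 RPKM in NTC and at 37.3, 43 and 91 in in vivo 4-cell embryos.

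Rps27 and its copies parted by stage: Rps27l was the form found in the 1-cell embryo, and by the in vivo 8-cell embryo Rps27 stood at 146, 143 and 176 RPKM beside 238, 213 and 203 of Rps27l and 27.9, 35.2 and 36.3 of Rps27rt. Rps27rt, a retrocopy of Rps27, was lower in NTM 8-cell embryos than in vivo (−2.15 ± 0.45, adjusted p = 0.04), as Rps27 was, but 10.5% of its 100-base stretches were unique, so its reads cannot be told apart from those of the genes that share the rest over most of its length. Rpl7l1, which acts in the assembly of the large subunit, was found at 16.3, 15.6 and 15.3 RPKM in NTC 1-cell embryos, at 3.14, 7.92 and 9.44 in NTM and at 0, 1.99 and 1.42 in in vivo 1-cell embryos. Its parent Rpl7 did not exceed 1.37 RPKM in any of these. The 3 types did not overlap for Rpl7l1.

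Rpl36al stood above its parent Rpl36a at the in vivo 4-cell stage, with 293, 286 and 321 RPKM against 66.7, 61.2 and 149, and close to it in in vivo blastulae, with 91.7, 142 and 121 against 60.9, 119 and 199. Rpl22l1 stood below Rpl22 in all 20 groups by the means, and reached 10.5 RPKM at most, where Rpl22 reached 177, 241 and 227 in in vivo blastulae. Rpl3l, known from striated muscle, stayed under 1 RPKM, while its parent Rpl3 stood at 259, 400 and 373 RPKM in the in vivo 4-cell embryos.

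**Figure D5:**
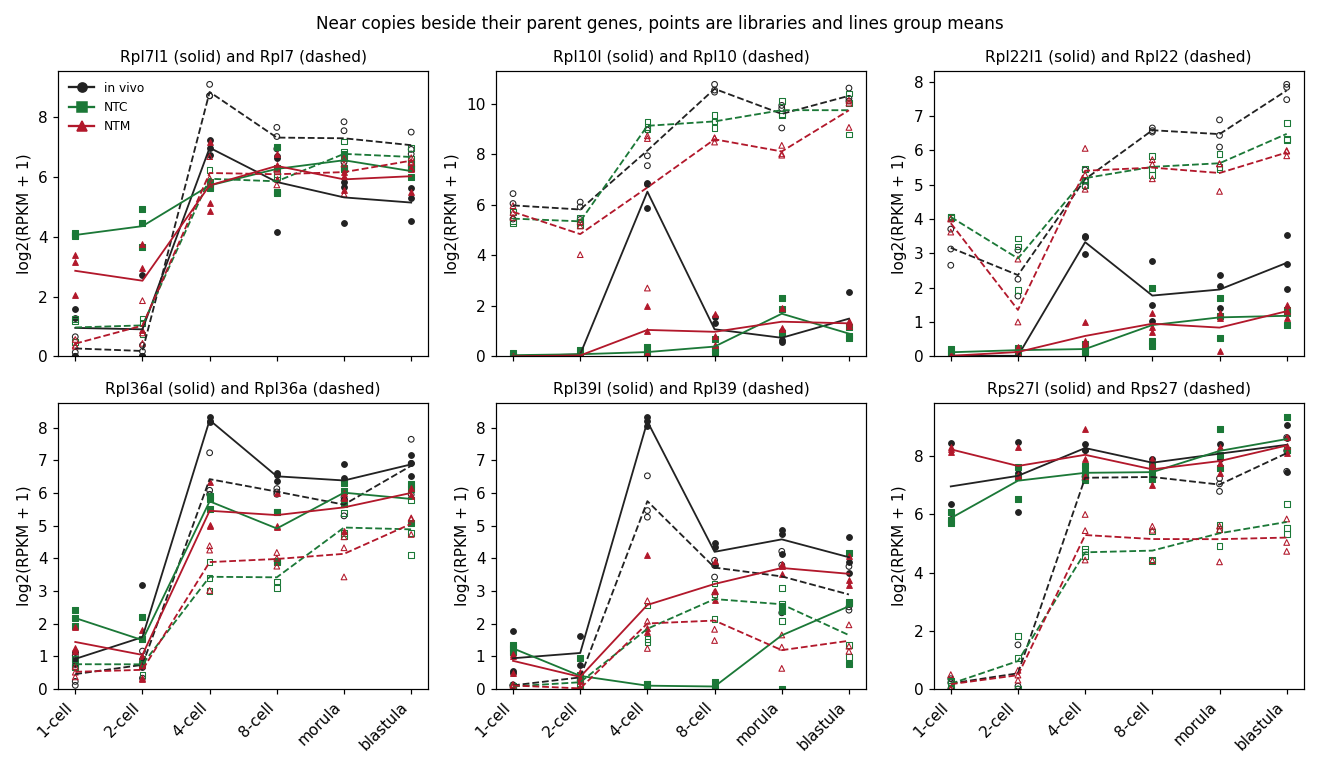
Level of near copies and their parent genes in each embryo library, as log2(RPKM + 1) on the vertical axis, by stage and embryo type, with filled points and solid lines for copies and open points and dashed lines for parents. Rps27l lies above Rps27 in all 1-cell libraries (at least 51.6 against at most 0.406 RPKM), and Rpl10l and Rpl39l peak in the in vivo 4-cell libraries, at up to 116 and 319 RPKM.

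Near copies limit how exactly reads can be placed. Of the 85 members, 78 shared at least 1 stretch of 100 bases with another annotated gene, with a median of 85.8% of stretches unique, and 39 had exons that overlap another gene. The table held 163 rows named as pseudogenes of members. With only the 29 members that have no row named as a pseudogene of theirs and are neither a near copy nor the parent of one, the factor between the groups with the highest and the lowest share was 45.4 in place of 20.7. How far shared reads moved single levels was not tested.

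Other genes of the translation machinery also rose at the 2-cell to 4-cell step. Fau and Rack1, which encode ribosomal proteins outside the naming rule, rose in all 3 types. Among translation factors with TOP mRNAs 10 of 15 rose and 1 fell in vivo, 8 rose and 1 fell in NTC and 6 rose and 1 fell in NTM embryos. Of 40 genes of ribosome biogenesis, 38 rose in vivo, and in NTC and NTM embryos 29 and 16 did, while none fell. Of 24 translation initiation genes 16 rose in vivo, and in the NTC and NTM types 13 of 23 and 12 of 24 did. Of the regulators of TOP mRNAs and ribosome synthesis 7 of 13 rose in in vivo embryos, and 5 of 13 and 6 of 12 in the NTC and NTM types, while none fell. Among 8 factors known from promoters of ribosomal protein genes 3 rose and 1 fell in vivo, while 4 rose in the NTC and 2 in the NTM type. The share of all genes that rose was 31.4%, 16.4% and 12.1%, and the share that fell was 20.8%, 20.1% and 14.3%. From the 2-cell to the in vivo 8-cell stage, where 13.8% of all genes rose, 11 of 15 TOP factors rose and 1 fell, 24 of 36 biogenesis genes rose and 1 fell, and 14 of 23 initiation genes, 5 of 13 regulators and 2 of 8 promoter factors rose, while 2 promoter factors fell. In NTC embryos, where 14.1% of all genes rose to the 8-cell stage, 10 of 15 TOP factors and 22 of 39 biogenesis genes rose. So did 13 of 24 initiation genes, 5 of 13 regulators and 1 of 8 promoter factors, while 1 promoter factor fell. In NTM embryos, where 17.9% did, 7 of 15 TOP factors rose and 1 fell, and 20 of 40 biogenesis genes rose. There 15 of 24 initiation genes, 6 of 13 regulators and 2 of 8 promoter factors rose, while 1 regulator and 1 promoter factor fell.

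Eef1g, a subunit of the elongation factor that recharges eEF1A, led the TOP factors in vivo with 8.23, against 2.25 in NTC and 2.77 in NTM embryos. Fau, which encodes the ribosomal protein eS30 as a fusion, rose by 7.30 in vivo and by 2.31 and 3.53 in the NTC and NTM types. With the 8-cell libraries the changes of Eef1g were 3.24, 2.58 and 3.21 and those of Fau 3.79, 2.06 and 3.08 in the same order, so the in vivo rise of both was then closer to that of the NT types. The mitochondrial ribosomal proteins, which serve another ribosome, rose in 60 of 76 cases in vivo, in 34 of 70 in NTC and in 23 of 70 in NTM embryos. To the 8-cell stage 27 of 68 rose in vivo, while the NTC type had 26 and the NTM type 29 that rose, of 69 each. At the in vivo 4-cell to 8-cell step 52 of 76 of them fell and 1 rose, and 23 of 40 biogenesis genes fell and 1 rose, against 39.3% of all genes that fell. Against in vivo 4-cell embryos, 18 biogenesis genes and 40 mitochondrial ribosomal proteins were lower in NTC, and 13 and 31 in NTM embryos, where 20.4% and 17.8% of all genes were lower. Against in vivo 8-cell embryos limma called none of them lower in either NT type (an unadjusted p under 0.05, in either direction, was reached by 6 and 7 of them in the NTC type, and by 5 and 9 in the NTM type).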

How the data were processed

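Single-embryo RNA-seq of 60 libraries (20 groups of 3) was analysed from 1 table of RPKM values per gene. The authors aligned reads with TopHat and Bowtie2, counted them with HTSeq and normalized them to the deposited RPKM, by gene length and mapped reads. The submitters' processing notes name Bowtie 0.12.2 and build mm8 instead, so the build of the table is uncertain and no coordinate of it was used. Strand of the counting is not given in the sources used here, so overlapping genes are uncertain. Relative depth was recovered from the steps of low RPKM values: 20881 genes and 62 members gave whole reads (tolerance 0.02).

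Members and lists were chosen with earlier results of these data known. Log2(RPKM + 1) was fitted with limma 3.58.1 (R 4.3.3, eBayes with trend) per pair of groups, for genes with a mean of at least 0.5 RPKM in the libraries compared, with Benjamini-Hochberg adjustment over all genes tested. The study's own count test needs counts, so limma replaced it. Named genes were the 3 highest members per subunit, near copies with their parents, the 3 largest called changes without overlap per comparison and those against the majority, the extremes of the 1-cell stage, stalk proteins, Rpsa and Rps6, and members at 0 in a whole group. Where 5 or fewer were called, each was named. Single values of some genes are not reported here, although counts and medians include them. Where nothing says that libraries of a group came from separate parents, p-values measure the spread between these libraries. The fit was tested on simulated data, and the outcome of that test is not reported here. Figures and shares used Python 3.11.15 with numpy 2.4.6, pandas 2.3.3 and scipy 1.17.1.

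Alternatives were a pseudocount of 0.1, no filter, median-ratio scaling, nuclear genes only, a joint fit of the 20 groups, no fold threshold, the replicate number as a block and each library left out in turn. The 8-cell stage in place of the 4-cell stage was added after the data were seen.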

Additional observations from a re-analysis of the deposited data

Results flagged for a closer look

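The interaction term, which tests whether the 2-cell to 4-cell change of an NT type differs from that in vivo, called 54 ribosomal protein genes for NTC and 38 for NTM embryos. The genes with the largest differences for NTC embryos were Rps29 (−8.42), Rpl39l (−7.39) and Rpl38 (−7.07 on the log2 scale). For NTM embryos they were Rps29 (−7.13), Rpl28 (−6.35) and Rpl10a (−6.31), and Rps12 differed in the opposite direction (2.39). Each of these differences rests on the 3 in vivo 4-cell libraries, and with the 8-cell stage in place of the 4-cell stage limma called none of 82 and none of 83 members, although 30 and 16 of them had an unadjusted p below 0.05. The share of reads from the mitochondrial genome, 5.68% to 8.87% in these libraries and 29.6% to 40.4% in the NT 4-cell libraries, moved with the result, and its part in the result was not tested beyond the fit with nuclear genes only.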

How the results depend on the processing

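Counts below are of members called, and medians are log2 changes of members. With the 8-cell stage in place of the 4-cell stage, the medians were 4.18 and 3.0 (in vivo and NTC rise from the 2-cell stage), −0.88 (NTC against in vivo) and −0.68 (NTM against in vivo), the counts against in vivo were 11 and 13, and both interactions had 0. Rpl17 then turned to −0.91 and −0.37, Rps12 to −1.50 and −0.77, and Rps12 in the NTM interaction to −1.19. Under median-ratio scaling the in vivo 4-cell to 8-cell count was 54, with more members higher than lower. The medians were then 2.67 (NTC rise to the 4-cell stage), −2.11 and −1.35 (NTC and NTM against in vivo 4-cell) and −1.54 and −1.55 (against in vivo blastula). The counts were 2 and 0 (in vivo and NTM morula to blastula), 0 and 0 (NTC and NTM against in vivo 1-cell) and 17 and 1 (against in vivo blastula). With nuclear genes only, the medians were 3.22 and 3.75 (NTC and NTM rise) and −2.12 and −1.60 (against in vivo 4-cell), and the counts 1 (NTM morula to blastula), 12 and 13 (against in vivo blastula). With a pseudocount of 0.1 the medians were 6.99, 3.45 and 4.38 (in vivo, NTC and NTM rise) and −2.65 (NTC against in vivo 4-cell), and the counts 1 and 0 (against in vivo 1-cell) and 11 and 17 (against in vivo blastula). With no filter the counts were 0 for NTM 1-cell to 2-cell, NTM morula to blastula, both NT types against in vivo 1-cell and blastula, and MEF against CC. In 1 fit over all groups the counts were 5 and 13 (in vivo and NTM 1-cell to 2-cell), 5, 1 and 1 (in vivo, NTC and NTM morula to blastula), 9 and 3 (against in vivo 1-cell), 27 and 36 (against in vivo blastula) and 17 (MEF against CC). The factor between the highest and the lowest group share was 45.4 over the members with no named copy. The cause of these shifts was not tested.

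The replicate block gave counts of 0 for both NT types against in vivo 1-cell and blastula and of 4 for MEF against CC, and changed no other count of members by more than 1.5 times. Deviations of libraries with the same number did not all correlate over 0.1 in any comparison, so the numbers were not taken as pairs.

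With 1 library left out, counts ranged from 7 to 18 (NTC 1-cell to 2-cell), 0 to 5 (NTM 1-cell to 2-cell), 0 to 6 (NTM morula to blastula), 0 to 12 and 0 to 6 (NTC and NTM against in vivo 1-cell), 0 to 6 and 0 to 15 (against in vivo blastula), 8 to 14 (NTM against NTC 1-cell), 1 to 3 (MEF against CC), 24 to 42 (NTC blastula against CC) and 23 to 40 (NTM blastula against MEF). Medians ranged from 2.75 to 2.99 (NTC rise), −2.52 to −2.02 (NTM against in vivo 4-cell) and −1.13 to −0.70 (NTM against in vivo blastula). The counts of the in vivo rise stayed between 78 and 81, of the NTC rise between 64 and 67 and of the NTM rise between 59 and 66. Low levels in 1-cell and 2-cell embryos are limited by depth.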
